A study of Mus musculus with 9 samples.

Results

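The nuclear-encoded subunits of the mitochondrial respiratory chain were followed in J774A.1 cells, a mouse macrophage line, by RNA sequencing. They were chosen by symbol as protein-coding genes of the Nduf, Sdh, Uqcr, Cox4 to Cox8 and Atp5 series plus Cyc1 and Cycs, with assembly factors left out and with at least 10 counts in at least 3 libraries. Of 87 matching genes 81 met that minimum, among 13453 genes tested in all. Complex I had 36 of them, complex II 4, complex III 9, complex IV 14, complex V 17, and cytochrome c was Cycs alone. The 9 libraries fell into 3 groups of 3, named by their guide RNA: Slc12a9 sgRNA 15, Slc12a9 sgRNA 11, and a safe sgRNA as control. The labels give the Slc12a9 groups as knockdown and the safe group as wild type, and all cells spent 6 h in DMEM without serum and without glutamine before lysis. They do not say whether each group was a clone or a pool, or whether replicates were separate cultures, so p-values measure the spread between these libraries, which may be technical.

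The targeted gene did not fall. Slc12a9 had 48.2, 49.96 and 51.6 CPM in the libraries labelled sgRNA 15, 62.5, 66.2 and 66.96 CPM in those labelled sgRNA 11, and 44.8, 53.4 and 46.9 CPM in the safe libraries. Slc12a9 was 0.43 ± 0.05 higher on the log2 scale with sgRNA 11 (SE; adjusted p = 6.45e-13 by edgeR's quasi-likelihood test) and 0.05 ± 0.05 higher with sgRNA 15 (adjusted p = 0.426). Its mRNA therefore goes against the label knockdown, counts per gene cannot show whether the gene was edited, and group names below are those of the labels. Gene counts per library ran from 16405296 to 25613961. All 8 macrophage markers were detected, and their summed level was 6851 to 6944 CPM (counts relative to library size) with sgRNA 15, 8439 to 8743 CPM with sgRNA 11 and 5095 to 5259 CPM in the safe libraries. With sgRNA 15, 5 of the 8 were higher and 2 lower, and with sgRNA 11, 6 were higher and 2 lower. Of all tested genes 32.2% were higher and 30.7% lower with sgRNA 15, and 33.3% and 32.4% with sgRNA 11. Both red cell markers, 3 of 4 epithelial, 3 of 4 T cell and 2 of 4 B cell markers were at 0 in every library. Fibroblast and neutrophil markers summed to at most 2.60 CPM and 4.05 CPM with sgRNA 15, 2.46 and 4.09 CPM with sgRNA 11, and 1.68 and 2.83 CPM in the safe libraries. In bulk RNA fewer cells of a type and less RNA per cell cannot be told apart, and the part of these genes in the results below was not tested.

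The respiratory chain passes electrons from NADH and succinate through complexes I and II, ubiquinone, complex III and cytochrome c to complex IV, which reduces oxygen. Complexes I, III and IV pump protons, and complex V, the ATP synthase, makes ATP as the protons flow back. Most subunits are encoded in the nucleus and imported, and a few of the central ones are encoded in mitochondrial DNA. Transcription factors such as NRF1, GABP of the ETS family and YY1 are known to bind promoters of many of the nuclear genes.

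Sequence is shown for cytochrome c, the member with the lowest log2 fold change with either guide, and for the 3 genes of the ATP synthase c ring, which moved in different directions. The windows reach from 250 bases before to 50 bases after the RefSeq start in GRCm38.p6, all on the minus strand, and are written 5′ to 3′, with matches to the NRF1 core GCATGCGC on either strand in capitals. They lie at chr6:50566520-50566819 for Cycs, chr15:102670998-102671297 for Atp5g2, chr2:73911277-73911576 for Atp5g3 and chr11:96075582-96075881 for Atp5g1.
Cycs: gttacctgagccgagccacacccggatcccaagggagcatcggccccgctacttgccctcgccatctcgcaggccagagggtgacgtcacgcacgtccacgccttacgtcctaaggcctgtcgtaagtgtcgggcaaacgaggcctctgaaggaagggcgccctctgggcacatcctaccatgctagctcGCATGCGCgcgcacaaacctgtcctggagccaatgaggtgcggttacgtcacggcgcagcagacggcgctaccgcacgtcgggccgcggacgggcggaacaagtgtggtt
Atp5g2: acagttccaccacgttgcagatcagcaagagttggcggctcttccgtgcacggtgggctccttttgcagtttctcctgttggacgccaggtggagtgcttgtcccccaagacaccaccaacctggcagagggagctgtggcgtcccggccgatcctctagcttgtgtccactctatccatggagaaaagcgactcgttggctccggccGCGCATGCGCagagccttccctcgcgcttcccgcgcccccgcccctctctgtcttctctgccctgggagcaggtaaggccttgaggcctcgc
Atp5g3: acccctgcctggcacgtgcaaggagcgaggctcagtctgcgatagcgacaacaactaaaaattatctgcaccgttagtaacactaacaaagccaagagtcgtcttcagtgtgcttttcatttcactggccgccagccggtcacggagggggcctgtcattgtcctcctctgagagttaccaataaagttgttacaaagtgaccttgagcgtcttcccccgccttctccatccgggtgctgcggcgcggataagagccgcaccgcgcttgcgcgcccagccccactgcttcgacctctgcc
Atp5g1: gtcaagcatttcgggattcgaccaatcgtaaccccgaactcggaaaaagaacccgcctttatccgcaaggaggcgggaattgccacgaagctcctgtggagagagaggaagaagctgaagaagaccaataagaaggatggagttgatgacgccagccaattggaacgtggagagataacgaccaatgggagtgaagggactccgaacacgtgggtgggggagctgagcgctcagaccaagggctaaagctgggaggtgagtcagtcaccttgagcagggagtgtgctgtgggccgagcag

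The core stood once in the Cycs window and on both strands, overlapping, in that of Atp5g2, while the Atp5g3 and Atp5g1 windows held none. A window could be matched for 66 of the 81 members, 2 of them through a synonym. The NRF1 core was in 11 of these 66 (16.7%), against 6.21% of 9467 tested genes with a window and 3.05% of all 27025 RefSeq genes with a window. Where a gene has several windows, a match in any of them counts. The YY1 core AAGATGGC was in 10 (15.2%, against 5.62% of tested genes and 3.19% of all RefSeq genes with a window), and the ETS core CCGGAAGT in 5 (7.58%, against 9.82% and 4.31%). Both strands were searched for each, and a match is a description, not a site. The members with an NRF1 core were Cycs, Atp5g2, Atp5k, Atp5l, Cox6a1, Uqcrc1, Uqcr11, Sdhb, Ndufa6, Ndufa8 and Ndufa11. Among these 11, 9 were lower and 2 higher with sgRNA 15, and 7 lower and 2 higher with sgRNA 11. The 55 members without the core had 29 lower and 9 higher with sgRNA 15 and 29 lower and 10 higher with sgRNA 11. Among all tested genes 30.7% were lower and 32.2% higher with sgRNA 15, and 32.4% and 33.3% with sgRNA 11. The median log2 fold change with and without the NRF1 core was -0.28 and -0.12 with sgRNA 15, and -0.16 and -0.17 with sgRNA 11. Of the 10 members with a YY1 core 7 were lower with sgRNA 15 and 6 with sgRNA 11. Of the 5 with an ETS core 4 were lower with either guide, and no member with either core was higher. A link between motif and change was not tested.

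More members fell than rose with each guide. With sgRNA 15, 44 of the 81 were lower and 14 higher than in the safe libraries, beside 30.7% of all tested genes lower and 32.2% higher. With sgRNA 11, 43 were lower and 17 higher, beside 32.4% of all tested genes lower and 33.3% higher. As shares, 54.3% of members were lower and 17.3% higher with sgRNA 15, and 53.1% and 20.99% with sgRNA 11. Calls rest on edgeR's quasi-likelihood test in one fit of all libraries, with Benjamini-Hochberg adjustment over 13453 genes and a threshold of 0.05. The changes were mostly small: the median log2 fold change of the members was -0.14 with sgRNA 15 and -0.13 with sgRNA 11, beside 0.01 for all tested genes with either. A change of 0.5 or more on the log2 scale was seen in 12 of the 81 members with sgRNA 15 and 10 with sgRNA 11. Among all 13453 tested genes it was seen in 3733 with sgRNA 15 and 4241 with sgRNA 11. Both member counts include Cox6a2, which met the count minimum only through the guide libraries. Both comparisons use the same safe libraries, so they are not independent of each other.

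The members are abundant genes, with a median level of 80.8 CPM over all libraries against 24.9 CPM for all tested genes. Of the 6536 tested genes in the middle 80% of the members' range of level, 41.4% were lower and 34.9% higher with sgRNA 15, and 44.0% and 35.3% with sgRNA 11. Together the members held 1.01 ± 0.021% of gene counts with sgRNA 15, 1.01 ± 0.0071% with sgRNA 11 and 1.10 ± 0.0020% in the safe libraries (SD, n = 3 each). The lowest safe library stood above every guide library in this share.

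Cox6a2 met the count minimum only through the guide libraries, having 4 to 9 counts in each safe library and 67 to 114 in each guide library. Without it 13 of 80 members were higher with sgRNA 15 and 16 of 80 with sgRNA 11. Just outside the minimum, Ndufa4l2, a paralog of Ndufa4, had 3, 5 and 0 counts with sgRNA 15, 1, 3 and 1 with sgRNA 11 and 0 in each safe library. Cox6b2 had at most 1 count in any library, and Cox8b, Cox8c, Cox7b2 and another Atp5o identifier were at 0 throughout. Counting could split reads for 32 members, of which 23 have a near copy in the genome annotation (at least 200 bases at 95% identity or more) and 11 share at least 10% of their exon length with another gene. These are called uncertain below. Among the 49 others, 29 were lower and 6 higher with sgRNA 15, and 28 lower and 10 higher with sgRNA 11. All tested genes had shares of 30.7% lower and 32.2% higher with sgRNA 15, and 32.4% and 33.3% with sgRNA 11.

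**Figure D1:**
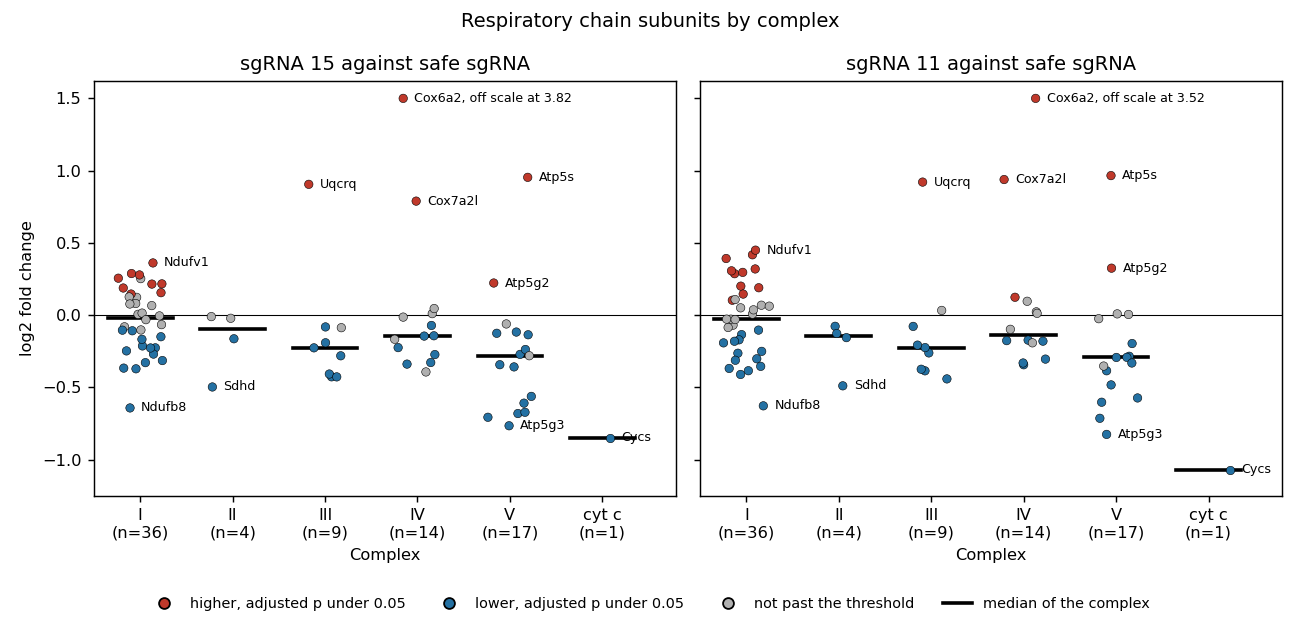
Log2 fold change of each of the 81 subunits against safe sgRNA, by complex, for sgRNA 15 (left) and sgRNA 11 (right); points are genes, coloured by the test, and black bars are medians. Complex V has the lowest median of the 5 complexes (-0.28 with sgRNA 15, -0.29 with sgRNA 11), complex I lies around 0, and Cycs lies below every other member; Cox6a2 is drawn at the upper edge because it is off the scale.

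The complexes differed in how their members were spread, as the plot by complex shows. Their counts stand beside 30.7% of all tested genes lower and 32.2% higher with sgRNA 15, and 32.4% and 33.3% with sgRNA 11. In complex V, 13 of 17 members were lower and 2 higher with sgRNA 15, and 11 lower and 2 higher with sgRNA 11. In complex III 7 of 9 were lower and 1 higher with either guide, with a median of -0.23 with sgRNA 15 and -0.22 with sgRNA 11. With a correction for GC content and exon length, 6 were lower with sgRNA 15 (median -0.16) and 5 with sgRNA 11 (median -0.18). Complex IV had 7 of 14 lower and 2 higher with sgRNA 15 and 6 lower and 3 higher with sgRNA 11, with a median of -0.14 with either guide. Cox6a2 is among the higher ones. With the GC and length correction the complex IV median with sgRNA 15 was -0.07. Complex II had 2 of 4 lower with sgRNA 15 (median -0.09) and all 4 with sgRNA 11 (median -0.14). When counts were scaled by library size only, the complex II median with sgRNA 15 was -0.05. Complex I was mixed, with 14 of 36 lower and 9 higher with sgRNA 15 and 14 lower and 11 higher with sgRNA 11. Its median was -0.02 with sgRNA 15 and -0.03 with sgRNA 11 and came out above 0 when counts were scaled by library size only, at 0.0201 with sgRNA 15 and 0.00522 with sgRNA 11, and without sgRNA 11 replicate 1, at 0.0253 with sgRNA 11. Differences between complexes were not tested.

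Summed levels showed where the counts went. Complex V took 0.367 ± 0.004% of gene counts with sgRNA 15, 0.362 ± 0.004% with sgRNA 11 and 0.437 ± 0.002% in the safe libraries. Complex I took 0.248 ± 0.007% with sgRNA 15, 0.248 ± 0.002% with sgRNA 11 and 0.248 ± 0.001% in the safe libraries (SD, n = 3 each), so its 3 means lay within 1 SD of each other. Complex IV took 0.173 ± 0.007% with sgRNA 15, 0.178 ± 0.002% with sgRNA 11 and 0.170 ± 0.001% in the safe libraries. Complex II took 0.0739 ± 0.0010% with sgRNA 15, 0.0712 ± 0.0010% with sgRNA 11 and 0.0802 ± 0.0012% in the safe libraries. Every guide library was below every safe library in this share. Complex III took 0.138 ± 0.002% with sgRNA 15, 0.139 ± 0.001% with sgRNA 11 and 0.141 ± 0.001% in the safe libraries. The complex III sum includes Uqcrq, which rose, beside the 7 members that fell.

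Complex I oxidises NADH in a peripheral arm and passes the electrons to ubiquinone. Its 7 nuclear-encoded core subunits went both ways, with 3 lower and 1 higher with sgRNA 15 and 3 lower and 2 higher with sgRNA 11. The shares over all tested genes were 30.7% lower and 32.2% higher with sgRNA 15, and 32.4% and 33.3% with sgRNA 11. Ndufv1 (ENSMUSG00000037916, mm10 chromosome 19, 4007384 to 4012806, minus strand) holds the NADH-binding site and was the highest-ranked of the risen complex I members. Ndufv1 had 103, 104 and 111 CPM in the libraries labelled sgRNA 15, 111, 114 and 113 CPM in those labelled sgRNA 11, and 82.4, 84.9 and 79.9 CPM in the safe libraries. Ndufv1 rose by 0.36 ± 0.04 on the log2 scale with sgRNA 15 (SE; adjusted p = 1.31e-14) and by 0.45 ± 0.04 with sgRNA 11 (SE; adjusted p = 2.11e-19). Every guide library was above every safe library.

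Ndufv2 and Ndufs1, which carry iron-sulfur clusters next to Ndufv1 in the same arm, were lower. Ndufv2 had 103, 99.4 and 109.6 CPM in the libraries labelled sgRNA 15, 99.6, 99.8 and 103 CPM in those labelled sgRNA 11, and 132, 128 and 131 CPM in the safe libraries. Ndufv2 fell by 0.33 ± 0.03 on the log2 scale with sgRNA 15 (SE; adjusted p = 5.01e-14) and by 0.37 ± 0.03 with sgRNA 11 (SE; adjusted p = 2.43e-16). Ndufs1 had 123, 123 and 123 CPM in the libraries labelled sgRNA 15, 112, 112 and 107 CPM in those labelled sgRNA 11, and 146, 147 and 138 CPM in the safe libraries. Ndufs1 fell by 0.23 ± 0.03 on the log2 scale with sgRNA 15 (SE; adjusted p = 2.21e-09) and by 0.38 ± 0.03 with sgRNA 11 (SE; adjusted p = 1.64e-18). For both genes every guide library was below every safe library, so neighbours in one arm moved in opposite directions.

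Of the accessory subunits, Ndufb8 in the membrane arm (ENSMUSG00000025204, mm10 chromosome 19, 44548572 to 44555440, minus strand) fell most. Ndufb8 had 33.3, 33.5 and 36.2 CPM in the libraries labelled sgRNA 15, 32.5, 35.5 and 35.8 CPM in those labelled sgRNA 11, and 55.5, 50.3 and 54.3 CPM in the safe libraries. Ndufb8 fell by 0.64 ± 0.05 on the log2 scale with sgRNA 15 (SE; adjusted p = 7.62e-19) and by 0.63 ± 0.05 with sgRNA 11 (SE; adjusted p = 1.44e-18). Its guide libraries lay below all safe libraries with no overlap. Ndufa4, listed here under complex I by its symbol and now placed in complex IV, fell as well. Ndufa4 had 122, 112 and 119 CPM in the libraries labelled sgRNA 15, 111, 118 and 114 CPM in those labelled sgRNA 11, and 156, 149 and 149.99 CPM in the safe libraries. Ndufa4 fell by 0.37 ± 0.03 on the log2 scale with sgRNA 15 (SE; adjusted p = 2.43e-17) and by 0.41 ± 0.03 with sgRNA 11 (SE; adjusted p = 1.24e-19). With the GC and length correction Ndufa4 was at -0.26 with sgRNA 11.

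Ndufa13 and Ndufb9 were the other risen complex I members named by rank, and both are uncertain. Ndufa13 had 63.1, 60.4 and 67.4 CPM in the libraries labelled sgRNA 15, 67.5, 69.1 and 67.9 CPM in those labelled sgRNA 11, and 50.9, 51.7 and 53.3 CPM in the safe libraries. Ndufa13 rose by 0.29 ± 0.05 on the log2 scale with sgRNA 15 (SE; adjusted p = 4.74e-08) and by 0.39 ± 0.05 with sgRNA 11 (SE; adjusted p = 1.28e-12). Ndufa13, an accessory subunit also known as GRIM-19, shares 30.0% of its exon length with Tssk6 on the other strand, and the strand setting of the counting is not given in the sources used here. Ndufb9 had 18.6, 15.2 and 16.8 CPM in the libraries labelled sgRNA 15, 17.8, 19.5 and 18.3 CPM in those labelled sgRNA 11, and 14.9, 13.4 and 13.1 CPM in the safe libraries. Ndufb9 rose by 0.28 ± 0.08 on the log2 scale with sgRNA 15 (SE; adjusted p = 0.00297) and by 0.42 ± 0.08 with sgRNA 11 (SE; adjusted p = 7.4e-06). Ndufb9, an accessory subunit of the membrane arm, shares 19.5% of its exon length with Gm49356 on the same strand, and its rise with sgRNA 15 lost its call without sgRNA 15 replicate 1 (log2 0.20, adjusted p = 0.0694). The other 29 complex I members ran from -0.37 for Ndufa11 to 0.26 for Ndufa6 with sgRNA 15 and from -0.35 for Ndufc1 to 0.32 for Ndufa6 with sgRNA 11.

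Complex II oxidises succinate and belongs to the tricarboxylic acid cycle as well. Sdhd (ENSMUSG00000000171, mm10 chromosome 9, 50596357 to 50603812, minus strand), one of its membrane anchors, fell most of the 4. Sdhd had 162, 149 and 156 CPM in the libraries labelled sgRNA 15, 156, 151 and 161 CPM in those labelled sgRNA 11, and 216, 219.8 and 222 CPM in the safe libraries. Sdhd fell by 0.50 ± 0.03 on the log2 scale with sgRNA 15 (SE; adjusted p = 1.05e-26) and by 0.49 ± 0.03 with sgRNA 11 (SE; adjusted p = 1.69e-26). Sdhb, the iron-sulfur subunit, fell less. Sdhb had 123, 124 and 123 CPM in the libraries labelled sgRNA 15, 125, 124 and 123 CPM in those labelled sgRNA 11, and 135, 139 and 140.3 CPM in the safe libraries. Sdhb fell by 0.16 ± 0.03 on the log2 scale with sgRNA 15 (SE; adjusted p = 5.13e-06) and by 0.16 ± 0.03 with sgRNA 11 (SE; adjusted p = 1.11e-05). In both genes the guide libraries lay below all safe libraries.

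Sdhc, the other membrane anchor, and Sdha, the flavoprotein that oxidises succinate, changed with sgRNA 11 but did not pass the test with sgRNA 15. Sdhc had 198, 204 and 198 CPM in the libraries labelled sgRNA 15, 189, 186 and 183 CPM in those labelled sgRNA 11, and 199, 204 and 207 CPM in the safe libraries. Its log2 fold change was -0.02 with sgRNA 15 (adjusted p = 0.521) and -0.13 with sgRNA 11 (adjusted p = 4.89e-05). Sdha had 259.5, 250.03 and 249 CPM in the libraries labelled sgRNA 15, 244, 243 and 237 CPM in those labelled sgRNA 11, and 256, 260.3 and 247 CPM in the safe libraries. Sdha differed by -0.01 with sgRNA 15 (adjusted p = 0.764) and -0.08 with sgRNA 11 (adjusted p = 0.00884). Tested directly, sgRNA 15 libraries were above sgRNA 11 libraries by 0.11 ± 0.03 (SE; adjusted p = 0.00172) in Sdhc and by 0.07 ± 0.03 (SE; adjusted p = 0.0439) in Sdha. The difference in Sdha lost its call in 8 of the 9 fits that leave out a library, all but that without safe replicate 3 (adjusted p up to 0.362). The Sdha call with sgRNA 11 was lost when counts were scaled by library size only (log2 -0.04, adjusted p = 0.144).

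**Figure D2:**
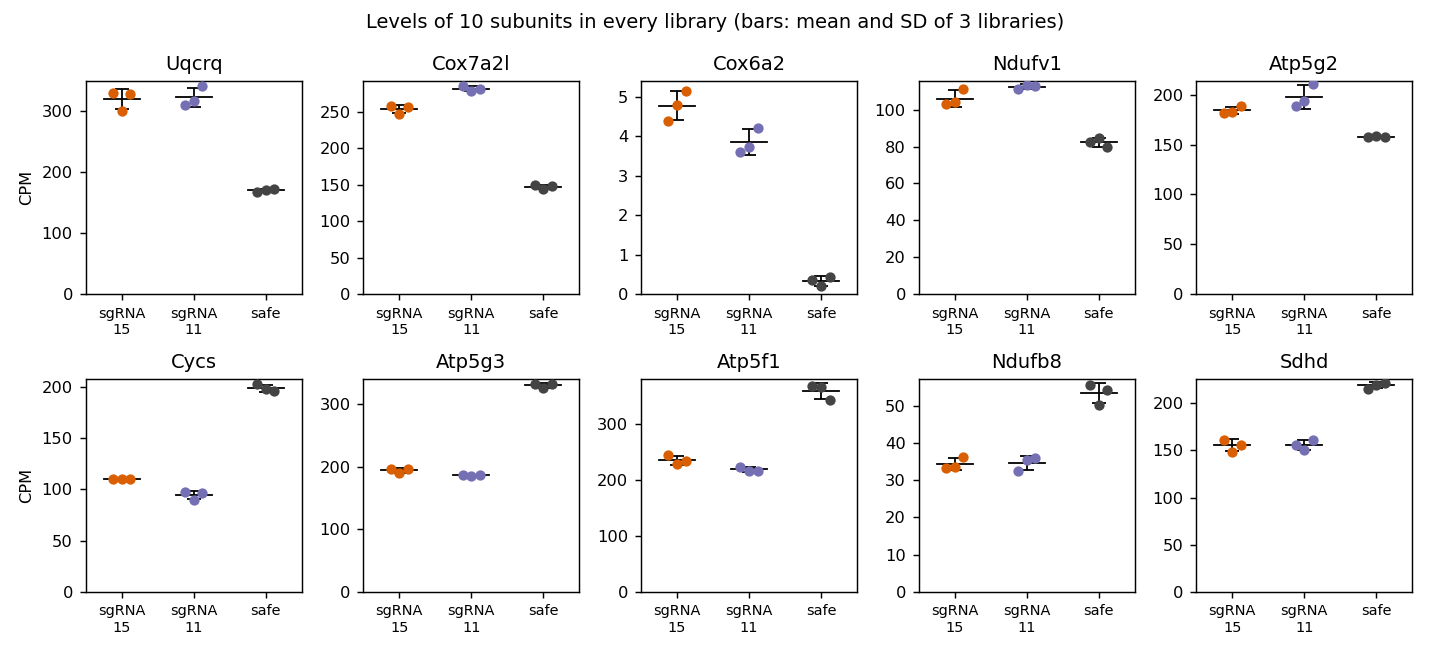
Levels in CPM of 10 subunits in each of the 3 libraries per group, with sgRNA 15 and sgRNA 11 left of safe sgRNA; bars give the mean and SD, and every axis starts at 0. In the upper row (Uqcrq, Cox7a2l, Cox6a2, Ndufv1, Atp5g2) every guide library is above the safe libraries, and in the lower row (Cycs, Atp5g3, Atp5f1, Ndufb8, Sdhd) every guide library is below them. For Cox6a2 this follows from the choice of members, since it met the count minimum only through the guide libraries.

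In complex III, which hands electrons from ubiquinol to cytochrome c, Uqcrq (ENSMUSG00000044894, mm10 chromosome 11, 53427922 to 53430831, minus strand) was the single member that rose. Uqcrq had 329.6, 299.6 and 327 CPM in the libraries labelled sgRNA 15, 309, 316 and 339.96 CPM in those labelled sgRNA 11, and 168, 170.2 and 172 CPM in the safe libraries. Uqcrq rose by 0.91 ± 0.03 on the log2 scale with sgRNA 15 (SE; adjusted p = 1.16e-20) and by 0.92 ± 0.03 with sgRNA 11 (SE; adjusted p = 5.54e-21). The gene encodes a small subunit and is not among the uncertain members. All guide libraries stood above all safe libraries. Its level was 1.87 times that of the safe libraries with sgRNA 15 and 1.89 times with sgRNA 11.

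Cyc1, the cytochrome c1 that passes electrons on to cytochrome c (ENSMUSG00000022551, mm10 chromosome 15, 76343523 to 76346260, plus strand), moved the other way. Cyc1 had 259, 262 and 267 CPM in the libraries labelled sgRNA 15, 261, 264 and 256 CPM in those labelled sgRNA 11, and 353, 351 and 355 CPM in the safe libraries. Cyc1 fell by 0.43 ± 0.03 on the log2 scale with sgRNA 15 (SE; adjusted p = 6.57e-27) and by 0.44 ± 0.03 with sgRNA 11 (SE; adjusted p = 5.87e-28). The small subunits Uqcrh, known as the hinge protein, and Uqcr11 fell with it. Uqcrh had 56.1, 50.2 and 50.1 CPM in the libraries labelled sgRNA 15, 54.2, 52.6 and 55.3 CPM in those labelled sgRNA 11, and 70.8, 71.2 and 68.1 CPM in the safe libraries. Uqcrh fell by 0.43 ± 0.05 on the log2 scale with sgRNA 15 (SE; adjusted p = 1.05e-13) and by 0.37 ± 0.05 with sgRNA 11 (SE; adjusted p = 1.01e-11). The fall of Uqcr11 was of like size. Uqcr11 had 39.6, 35.5 and 42.4 CPM in the libraries labelled sgRNA 15, 39.2, 40.5 and 39.03 CPM in those labelled sgRNA 11, and 50.7, 49.3 and 55.2 CPM in the safe libraries. Uqcr11 fell by 0.41 ± 0.05 on the log2 scale with sgRNA 15 (SE; adjusted p = 1.79e-10) and by 0.38 ± 0.05 with sgRNA 11 (SE; adjusted p = 7.45e-10). The core proteins Uqcrc1 and Uqcrc2 and the Rieske protein Uqcrfs1 also fell by 0.28, 0.08 and 0.19 with sgRNA 15 and by 0.22, 0.08 and 0.21 with sgRNA 11 on the log2 scale. Uqcrb, a small subunit with a near copy, fell by 0.23 with sgRNA 15 and by 0.26 with sgRNA 11. With either guide the calls of Uqcrc2 and Uqcrb did not hold in every alternative analysis. Uqcr10 did not pass the test with either guide (-0.09 with sgRNA 15 and 0.03 with sgRNA 11).

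Cytochrome c, the soluble carrier between complexes III and IV that also triggers apoptosis when it leaves mitochondria, is encoded by Cycs (ENSMUSG00000063694, mm10 chromosome 6, 50562563 to 50566538, minus strand). Cycs had 111, 110.4 and 111 CPM in the libraries labelled sgRNA 15, 97.2, 90.02 and 96.6 CPM in those labelled sgRNA 11, and 203, 198 and 196 CPM in the safe libraries. Cycs fell by 0.85 ± 0.03 on the log2 scale with sgRNA 15 (SE; adjusted p = 1.59e-40) and by 1.07 ± 0.03 with sgRNA 11 (SE; adjusted p = 1.76e-47). The sgRNA 11 libraries were the lowest, the sgRNA 15 libraries came next, and the 3 groups did not overlap. Cycs is uncertain, because Gm10053 matches it over 946 bases at 99.9% identity, the longest of 12 copies of at least 100 bases at 95% identity or more. The counts assigned to that copy were low, with means of 1.65 CPM with sgRNA 15, 1.45 CPM with sgRNA 11 and 3.38 CPM in the safe libraries, and reads aligned to more than one place were tallied apart from the gene counts.

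Complex IV reduces oxygen, and its nuclear-encoded subunits include pairs of forms used in different tissues. Cox7a2l (ENSMUSG00000024248, mm10 chromosome 17, 83501918 to 83517330, minus strand), known as SCAF1 and as a factor that links complexes III and IV into supercomplexes, rose. Cox7a2l had 258, 248 and 256 CPM in the libraries labelled sgRNA 15, 285, 278 and 282 CPM in those labelled sgRNA 11, and 149, 144 and 147 CPM in the safe libraries. Cox7a2l rose by 0.79 ± 0.03 on the log2 scale with sgRNA 15 (SE; adjusted p = 4.15e-42) and by 0.94 ± 0.03 with sgRNA 11 (SE; adjusted p = 5.62e-48). It is uncertain, since Gm6969 matches it over 342 bases at 97.95% identity, although that copy had at most 1.32 CPM in any group mean. Its relative Cox7a2, the form found in most tissues, fell. Cox7a2 had 92.1, 91.1 and 89.7 CPM in the libraries labelled sgRNA 15, 88.03, 82.7 and 88.9 CPM in those labelled sgRNA 11, and 112, 113 and 105 CPM in the safe libraries. Cox7a2 fell by 0.27 ± 0.04 on the log2 scale with sgRNA 15 (SE; adjusted p = 4.78e-10) and by 0.34 ± 0.04 with sgRNA 11 (SE; adjusted p = 9.65e-14). Cox7a1, the form of heart and muscle, was low, with means of 3.18 ± 0.527 CPM with sgRNA 15, 2.72 ± 0.0972 CPM with sgRNA 11 and 3.11 ± 0.564 CPM in the safe libraries (SD, n = 3 each), and passed the test with neither guide (log2 0.05 with sgRNA 15 and -0.19 with sgRNA 11).

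On the per-length scale Cox7a2l made up 62.7 ± 0.79% of the summed TPM (level relative to exon length) of the 3 Cox7a genes with sgRNA 15, 66.3 ± 0.64% with sgRNA 11 and 44.9 ± 1.32% in the safe libraries. Cox7a2 made up 35.1 ± 0.46% with sgRNA 15, 31.9 ± 0.63% with sgRNA 11 and 52.5 ± 0.91% in the safe libraries (SD, n = 3 each). Per length, Cox7a2l was thus above Cox7a2 in every guide library and below it in every safe library. In CPM Cox7a2l was above Cox7a2 in every library, the safe ones included, so the crossing depends on the union exon length used.

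Cox6a2 (ENSMUSG00000030785, mm10 chromosome 7, 128205435 to 128206387, minus strand), the form of subunit VIa known from heart and muscle, was at a very low level. Cox6a2 had 4.39, 4.79 and 5.14 CPM in the libraries labelled sgRNA 15, 3.61, 3.73 and 4.21 CPM in those labelled sgRNA 11, and 0.359, 0.202 and 0.431 CPM in the safe libraries. Cox6a2 met the count minimum only through the guide libraries, so that these lie above the safe libraries follows from the choice of members and is given without a test. It is uncertain, because 10.3% of its exon length overlaps Itgad on the other strand. Cox6a1, the form found in most tissues, supplied 97.5 ± 0.16% of the summed TPM of the pair with sgRNA 15, 98.1 ± 0.10% with sgRNA 11 and 99.8 ± 0.06% in the safe libraries, so the pair stayed almost wholly Cox6a1. Cox6a1 had means of 192 ± 6.83 CPM with sgRNA 15, 203 ± 6.01 CPM with sgRNA 11 and 201 ± 6.50 CPM in the safe libraries (SD, n = 3 each). On the log2 scale Cox6a1 was at -0.07 with sgRNA 15 (adjusted p = 0.0292) and at 0.01 with sgRNA 11 (adjusted p = 0.718). The call for Cox6a1 with sgRNA 15 was lost with the correction for GC content and length (log2 -0.02, adjusted p = 0.827), and when counts were scaled by library size only (-0.03, adjusted p = 0.324). It was also lost without safe replicate 3 (adjusted p = 0.0719), without sgRNA 15 replicate 1 (adjusted p = 0.0621) and without sgRNA 15 replicate 2 (adjusted p = 0.157).

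Cox7b and Cox5a, other nuclear-encoded subunits of complex IV, were the remaining falls named by rank, and both are uncertain. Cox7b had 78.9, 73.7 and 77.1 CPM in the libraries labelled sgRNA 15, 77.4, 76.9 and 76.4 CPM in those labelled sgRNA 11, and 101, 94.3 and 94.8 CPM in the safe libraries. Cox7b fell by 0.34 ± 0.04 on the log2 scale with sgRNA 15 (SE; adjusted p = 1.61e-12) and by 0.33 ± 0.04 with sgRNA 11 (SE; adjusted p = 2.74e-12). With the GC and length correction the fall of Cox7b was smaller, at -0.17 with sgRNA 11, and with that correction and the replicate block it was -0.22 with sgRNA 15. The guide libraries were below the safe libraries for both genes. Cox5a had 75.7, 67.6 and 67.3 CPM in the libraries labelled sgRNA 15, 72.9, 65.3 and 75.5 CPM in those labelled sgRNA 11, and 87.7, 88.4 and 88.6 CPM in the safe libraries. Cox5a fell by 0.33 ± 0.04 on the log2 scale with sgRNA 15 (SE; adjusted p = 6.04e-10) and by 0.30 ± 0.04 with sgRNA 11 (SE; adjusted p = 3.97e-09). Cox4i1, the common form of subunit IV, averaged 302 ± 6.76 CPM with sgRNA 15, 327 ± 5.88 CPM with sgRNA 11 and 299.7 ± 6.67 CPM in the safe libraries (SD, n = 3 each). It was higher with sgRNA 11 by 0.12 ± 0.03 on the log2 scale (SE; adjusted p = 1.71e-05), or by 0.06 (adjusted p = 0.0400) with the GC and length correction, and did not pass the test with sgRNA 15 (0.01, adjusted p = 0.739). Its relative Cox4i2, a form described in lung, averaged 1.69 ± 0.470 CPM with sgRNA 15, 2.34 ± 0.338 CPM with sgRNA 11 and 2.19 ± 0.353 CPM in the safe libraries (SD, n = 3 each) and passed the test with neither. Cox6b1 and Cox8a, small subunits whose tissue-specific relatives had 0 or 1 count, fell by 0.22 and 0.14 with sgRNA 15 and by 0.17 and 0.18 with sgRNA 11 on the log2 scale. With the GC and length correction Cox6b1 was at -0.13 with sgRNA 15. The Cox8a call with sgRNA 15 was lost without safe replicate 1, safe replicate 3, sgRNA 11 replicate 2 or sgRNA 15 replicate 1 (adjusted p 0.0701 to 0.119), with the GC and length correction (log2 -0.07, adjusted p = 0.485), when counts were scaled by library size only (-0.11, adjusted p = 0.0614), and with a filter of 10 or more counts in 3 or more libraries (adjusted p = 0.0503). With sgRNA 11 it was lost without safe replicate 1, safe replicate 3 or sgRNA 11 replicate 2 (adjusted p 0.0640 to 0.0776).

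Complex V makes ATP in a head called F1 that is driven by a ring of c subunits in the membrane. The 5 F1 genes were all lower with sgRNA 15, and 3 of them with sgRNA 11, with a median of -0.24 with sgRNA 15 and -0.28 with sgRNA 11. Atp5d and Atp5e did not pass the test with sgRNA 11, where neither was above 0.0091. The Atp5e call with sgRNA 15 did not hold in every alternative analysis. Of the 4 peripheral stalk genes 3 were lower with either guide, and of the 4 genes of small membrane subunits 3 were lower with either guide. These counts stand beside 30.7% of all tested genes lower with sgRNA 15 and 32.4% with sgRNA 11. Atp5b, the catalytic beta subunit of the head, averaged 1165 ± 10.9 CPM with sgRNA 15, 1127 ± 17.7 CPM with sgRNA 11 and 1373 ± 12.9 CPM in the safe libraries (SD, n = 3 each) and fell by 0.24 with sgRNA 15 and by 0.28 with sgRNA 11 on the log2 scale. Atp5a1, the alpha subunit, averaged 849 ± 9.13 CPM with sgRNA 15, 836 ± 6.58 CPM with sgRNA 11 and 1025 ± 23.2 CPM in the safe libraries (SD, n = 3 each) and fell by 0.27 with sgRNA 15 and by 0.29 with sgRNA 11. Atp5f1, subunit b of the peripheral stalk, was among the 3 lowest-ranked members of the complex. Atp5f1 had 244, 228 and 233 CPM in the libraries labelled sgRNA 15, 223, 216 and 216 CPM in those labelled sgRNA 11, and 367, 366 and 342 CPM in the safe libraries. Atp5f1 fell by 0.61 ± 0.03 on the log2 scale with sgRNA 15 (SE; adjusted p = 8.19e-35) and by 0.71 ± 0.03 with sgRNA 11 (SE; adjusted p = 1.33e-39). Gm12231 matches Atp5f1 over 696 bases at 98.7% identity, so it is uncertain. Atp5k, subunit e, is uncertain as well. Atp5k had 15.97, 15.5 and 19.2 CPM in the libraries labelled sgRNA 15, 16.3, 17.5 and 20.1 CPM in those labelled sgRNA 11, and 28.9, 28.02 and 24.6 CPM in the safe libraries. Atp5k fell by 0.71 ± 0.08 on the log2 scale with sgRNA 15 (SE; adjusted p = 1.59e-12) and by 0.60 ± 0.08 with sgRNA 11 (SE; adjusted p = 1.72e-10). For both genes no guide library reached the level of a safe library.

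The c subunit is encoded by 3 genes that make the same mature protein behind different import sequences, and they parted. Atp5g3 (ENSMUSG00000018770, mm10 chromosome 2, 73908447 to 73911326, minus strand) was the most abundant of the 3 per length in the safe libraries. Atp5g3 had 197, 189.8 and 196 CPM in the libraries labelled sgRNA 15, 187, 185 and 187 CPM in those labelled sgRNA 11, and 332, 326 and 331 CPM in the safe libraries. Atp5g3 fell by 0.77 ± 0.03 on the log2 scale with sgRNA 15 (SE; adjusted p = 7.39e-43) and by 0.82 ± 0.03 with sgRNA 11 (SE; adjusted p = 2.32e-45). Atp5g1 fell as well. Atp5g1 had 90.1, 92.4 and 93.7 CPM in the libraries labelled sgRNA 15, 87.2, 92.9 and 94.2 CPM in those labelled sgRNA 11, and 135, 135 and 138 CPM in the safe libraries. Atp5g1 fell by 0.56 ± 0.03 on the log2 scale with sgRNA 15 (SE; adjusted p = 7.12e-26) and by 0.57 ± 0.03 with sgRNA 11 (SE; adjusted p = 1.45e-26). Atp5g2 (ENSMUSG00000062683, mm10 chromosome 15, 102662864 to 102672352, minus strand) rose. Atp5g2 had 182, 183 and 188 CPM in the libraries labelled sgRNA 15, 189, 193 and 211 CPM in those labelled sgRNA 11, and 158, 158 and 158 CPM in the safe libraries. Atp5g2 rose by 0.22 ± 0.03 on the log2 scale with sgRNA 15 (SE; adjusted p = 9.9e-10) and by 0.33 ± 0.03 with sgRNA 11 (SE; adjusted p = 2.47e-16). For each of the 3 genes the guide libraries and the safe libraries did not overlap. Atp5g1 and Atp5g2 are uncertain, with Gm10039 matching Atp5g1 at 99.8% identity and Gm10175 matching Atp5g2 at 100%. Gm10039 had 12.98 CPM with sgRNA 15, 13.4 CPM with sgRNA 11 and 18.2 CPM in the safe libraries, and Gm10175 at most 1.09 CPM in any group mean.

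**Figure D3:**
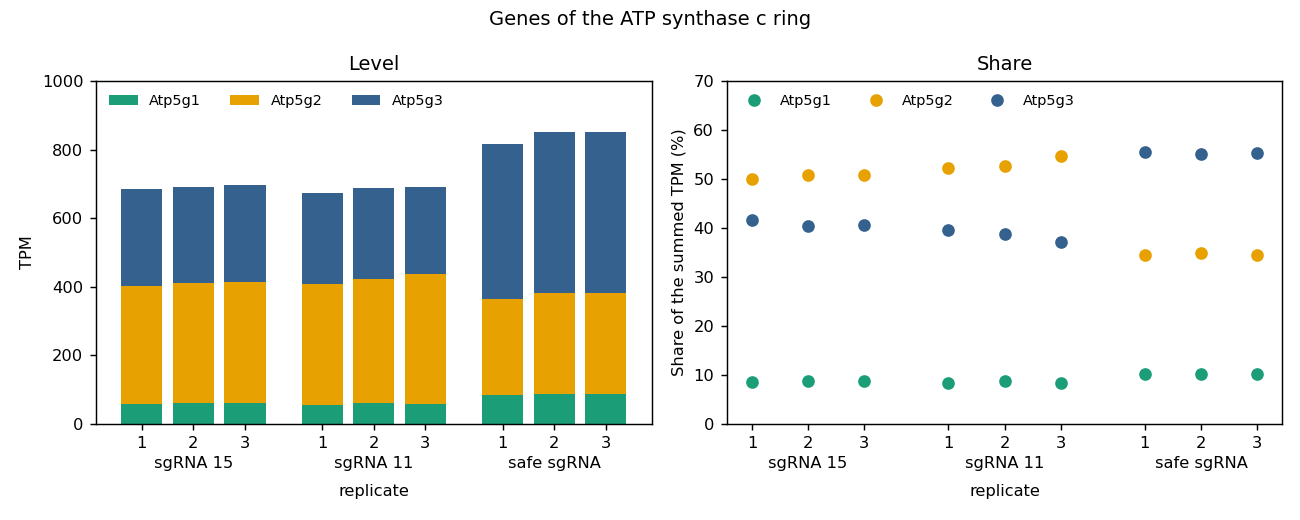
Levels in TPM (left, stacked) and shares of their sum in percent (right) of the 3 genes for the ATP synthase c subunit, in each library; sgRNA 15 and sgRNA 11 stand left of safe sgRNA. Atp5g2 holds 50.04 to 50.8% of the sum with sgRNA 15, 52.2 to 54.6% with sgRNA 11 and 34.4 to 34.9% in the safe libraries, and Atp5g3 the larger share in the safe libraries alone.

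Per length, the sum of the 3 genes was 691 ± 5.36 TPM with sgRNA 15, 684 ± 9.47 TPM with sgRNA 11 and 839 ± 20.9 TPM in the safe libraries (SD, n = 3 each). Atp5g2 made up 50.6 ± 0.45% of it with sgRNA 15, 53.2 ± 1.24% with sgRNA 11 and 34.5 ± 0.28% in the safe libraries. Atp5g3 made up 40.8 ± 0.58% with sgRNA 15, 38.4 ± 1.24% with sgRNA 11 and 55.3 ± 0.27% in the safe libraries. Per length, the leading c subunit gene was thus Atp5g2 in each of the 6 guide libraries and Atp5g3 in each of the 3 safe libraries. In CPM Atp5g2 led in the sgRNA 11 libraries only, and Atp5g3 was above it in every sgRNA 15 library as in every safe library. The shares depend on the union exon length. Reads aligned to more than one place, which the near copies of Atp5g1 and Atp5g2 can cause, are not in them.

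Atp5s, known as coupling factor B, rose at a low level. Atp5s had 3.18, 4.96 and 3.08 CPM in the libraries labelled sgRNA 15, 3.78, 4.51 and 3.30 CPM in those labelled sgRNA 11, and 1.68, 2.12 and 2.16 CPM in the safe libraries. Atp5s rose by 0.95 ± 0.20 on the log2 scale with sgRNA 15 (SE; adjusted p = 1.88e-05) and by 0.97 ± 0.20 with sgRNA 11 (SE; adjusted p = 1.28e-05). All guide libraries were above the safe libraries, on 51 to 118 counts with sgRNA 15, 73 to 86 with sgRNA 11 and 40 to 42 in the safe libraries.

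Between the guides 19 members differed. With sgRNA 15 against sgRNA 11, 12 of the 81 were lower and 7 higher, beside 15.5% of all tested genes lower and 18% higher. With a correction for GC content and exon length 2 were lower and 10 higher, and 6 of the 19 calls held in the same direction. Among those called, the difference was largest in Ndufa11, an accessory subunit of the complex I membrane arm. Ndufa11 had 17.7, 16.7 and 17.4 CPM in the libraries labelled sgRNA 15, 20.3, 20.2 and 22.9 CPM in those labelled sgRNA 11, and 22.6, 21.2 and 22.9 CPM in the safe libraries. Ndufa11 differed by -0.30 ± 0.08 (SE; adjusted p = 0.00088) between sgRNA 15 and sgRNA 11, and by -0.18 (adjusted p = 0.0573) with the correction. Cycs was higher with sgRNA 15 than with sgRNA 11 by 0.22 ± 0.03 (SE; adjusted p = 6.09e-08), and by 0.13 (adjusted p = 0.000816) with the correction.

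The other members named for their difference were also of complex I. Ndufb3 had 38.9, 35.1 and 38.6 CPM in the libraries labelled sgRNA 15, 30.96, 36.2 and 32.3 CPM in those labelled sgRNA 11, and 32.8, 32.4 and 33.4 CPM in the safe libraries. Ndufb3, a membrane arm subunit and uncertain, was higher with sgRNA 15 than with sgRNA 11 by 0.18 ± 0.06 (SE; adjusted p = 0.0105), the groups overlapped, and the call was lost without sgRNA 11 replicate 1, without sgRNA 11 replicate 3, without sgRNA 15 replicate 1 and without sgRNA 15 replicate 3 (adjusted p at most 0.151). Ndufs1 was higher by 0.16 ± 0.03 (SE; adjusted p = 6.1e-05), and by 0.08 (adjusted p = 0.0435) with the correction. Ndufa3 had 32.99, 27.8 and 30.1 CPM in the libraries labelled sgRNA 15, 33.8, 33.9 and 36.2 CPM in those labelled sgRNA 11, and 36.1, 36.3 and 33.5 CPM in the safe libraries. Ndufa3, an accessory subunit, differed by -0.20 ± 0.06 (SE; adjusted p = 0.00613), and the call was lost without sgRNA 15 replicate 2 (-0.14, adjusted p = 0.106) and with the correction (-0.12, adjusted p = 0.131). Ndufb11, a membrane arm subunit and uncertain, differed too. Ndufb11 had 49.8, 46.6 and 46.7 CPM in the libraries labelled sgRNA 15, 51.6, 53.8 and 53.6 CPM in those labelled sgRNA 11, and 42.4, 41.8 and 45.4 CPM in the safe libraries. Its difference between the guides was -0.15 ± 0.05 (SE; adjusted p = 0.0112), and -0.07 (adjusted p = 0.272) with the correction.

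**Figure D4:**
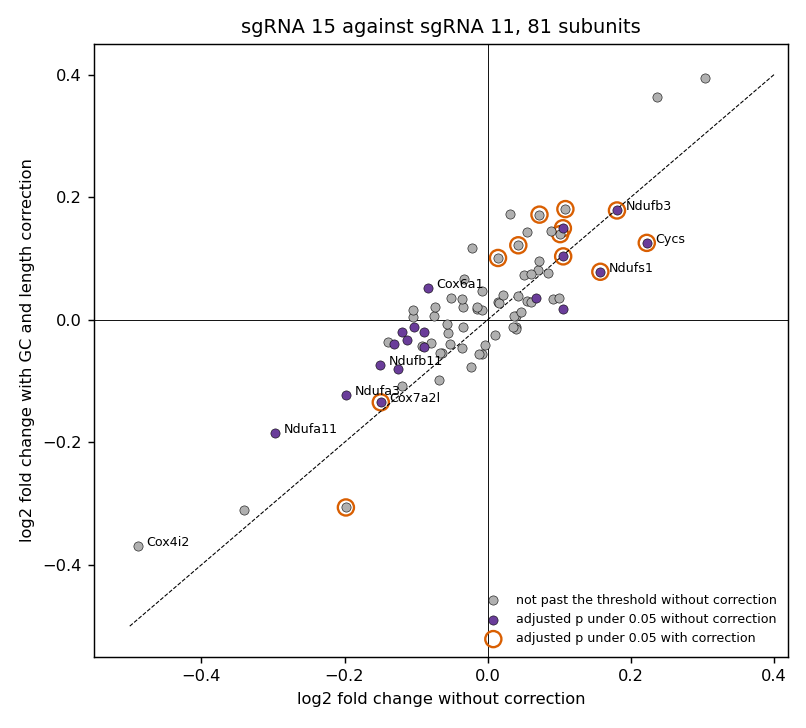
Log2 fold change of sgRNA 15 against sgRNA 11 for the 81 subunits without (horizontal) and with (vertical) a correction for GC content and exon length; filled points pass the threshold without it, orange rings with it, and the dashed line marks equal values. Of the 19 calls without the correction 6 carry a ring, among them Cycs, Ndufb3, Ndufs1 and Cox7a2l.

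Genes that work beside the chain were counted for context, from lists chosen with results of these data known. The tricarboxylic acid cycle, which supplies the NADH and succinate, had 12 of 14 genes lower and 0 higher with sgRNA 15 and 13 lower and 1 higher with sgRNA 11, beside 30.7% of all tested genes lower and 32.2% higher with sgRNA 15 and 32.4% and 33.3% with sgRNA 11, with a median of -0.27 with sgRNA 15 and -0.38 with sgRNA 11. Idh3a, a subunit of NAD-dependent isocitrate dehydrogenase, averaged 135 ± 2.66 CPM with sgRNA 15, 112 ± 1.32 CPM with sgRNA 11 and 229 ± 4.61 CPM in the safe libraries (SD, n = 3 each). Idh3a fell by 0.76 ± 0.03 on the log2 scale with sgRNA 15 (SE; adjusted p = 2.47e-39) and by 1.03 ± 0.03 with sgRNA 11 (SE; adjusted p = 2.22e-48). Mdh2, Cs and Ogdh, the malate dehydrogenase, citrate synthase and oxoglutarate dehydrogenase of the cycle, fell by 0.50, 0.43 and 0.36 with sgRNA 15 and by 0.56, 0.48 and 0.48 with sgRNA 11 on the log2 scale.

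Among regulators of mitochondrial biogenesis 7 of 13 were lower and 2 higher with sgRNA 15, and 9 lower and 2 higher with sgRNA 11. The shares of all tested genes were 30.7% lower and 32.2% higher with sgRNA 15, and 32.4% and 33.3% with sgRNA 11. Pprc1, a coactivator related to PGC-1, averaged 83.7 ± 4.54 CPM with sgRNA 15, 82.4 ± 3.63 CPM with sgRNA 11 and 125 ± 4.05 CPM in the safe libraries (SD, n = 3 each). Pprc1 fell by 0.57 ± 0.04 on the log2 scale with sgRNA 15 (SE; adjusted p = 3.57e-24) and by 0.59 ± 0.04 with sgRNA 11 (SE; adjusted p = 3.48e-25). Nrf1, whose protein gives the NRF1 motif its name, and Ppargc1b, the coactivator PGC-1 beta, fell by 0.32 and 0.57 with sgRNA 15 and by 0.29 and 0.68 with sgRNA 11. Tfb1m, a mitochondrial rRNA methyltransferase, rose by 0.55 with sgRNA 15 and by 0.54 with sgRNA 11.

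Coenzyme Q synthesis had 5 of 13 genes higher and 4 lower with either guide, shares near those of all tested genes (32.2% higher and 30.7% lower with sgRNA 15, 33.3% higher and 32.4% lower with sgRNA 11). Pdss1, which makes the isoprenoid tail, fell by 1.00 with sgRNA 15 and by 1.09 with sgRNA 11, while Coq8a, an atypical kinase of the pathway, rose by 1.15 with sgRNA 15 and by 1.73 with sgRNA 11. Coq10a and Coq8b rose by 0.68 and 0.57 with sgRNA 15 and by 0.51 and 0.60 with sgRNA 11. Of the 13 subunits encoded in mitochondrial DNA, 3 were lower and 3 higher with sgRNA 15, and 6 lower and 1 higher with sgRNA 11, beside 30.7% of all tested genes lower and 32.2% higher with sgRNA 15 and 32.4% and 33.3% with sgRNA 11. Among them mt-Nd1 fell by 0.83 with sgRNA 15 and by 0.91 with sgRNA 11, and mt-Nd4 rose by 0.24 with sgRNA 15 and by 0.22 with sgRNA 11.

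Assembly factors, which build the complexes without staying in them, were counted by complex. Of 18 tested for complex I, 6 were lower and 4 higher with sgRNA 15, and 7 lower and 4 higher with sgRNA 11, with a median of -0.03 with either guide. The lower ones are a share near that of all tested genes (30.7% with sgRNA 15, 32.4% with sgRNA 11). The higher ones stand beside 32.2% of all tested genes with sgRNA 15 and 33.3% with sgRNA 11. Ndufaf4 averaged 21.3 ± 0.987 CPM with sgRNA 15, 16.8 ± 1.02 CPM with sgRNA 11 and 33.1 ± 2.95 CPM in the safe libraries (SD, n = 3 each). Ndufaf4 fell by 0.64 ± 0.07 on the log2 scale with sgRNA 15 (SE; adjusted p = 7.75e-14) and by 0.99 ± 0.07 with sgRNA 11 (SE; adjusted p = 2.36e-22). Acad9 and Ecsit fell by 0.40 and 0.39 with sgRNA 15 and by 0.48 and 0.53 with sgRNA 11, and Nubpl, an iron-sulfur assembly factor, rose by 0.60 with sgRNA 15 and by 0.51 with sgRNA 11.

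The counts for the other complexes stand beside 30.7% of all tested genes lower and 32.2% higher with sgRNA 15, and 32.4% and 33.3% with sgRNA 11. For complex IV, 8 of 20 tested factors were lower and 4 higher with sgRNA 15, and 8 lower and 5 higher with sgRNA 11. Coa5 fell by 0.26 with sgRNA 15 and by 0.30 with sgRNA 11, Cox19 fell by 0.47 with sgRNA 15 and by 0.45 with sgRNA 11, Coa3 fell by 0.26 with sgRNA 15 and by 0.22 with sgRNA 11, and Coa4 rose by 0.68 with sgRNA 15 and by 0.65 with sgRNA 11. For complex III 2 of 6 factors were lower and 1 higher with either guide, the riser being Bcs1l, which inserts the Rieske protein (0.41 with sgRNA 15 and 0.57 with sgRNA 11). For complex V 2 of 5 were lower and 1 higher with either guide, among them Atpaf1, which rose by 0.27 with sgRNA 15 and by 0.23 with sgRNA 11, and Tmem70, which fell by 0.16 with sgRNA 15 and by 0.10 with sgRNA 11. For complex II, 2 of 4 were higher with either guide and 1 was lower with sgRNA 11; the risers Sdhaf3 and Sdhaf4 rose by 0.61 and 0.41 with sgRNA 15 and by 0.50 and 0.38 with sgRNA 11.

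**Figure D5:**
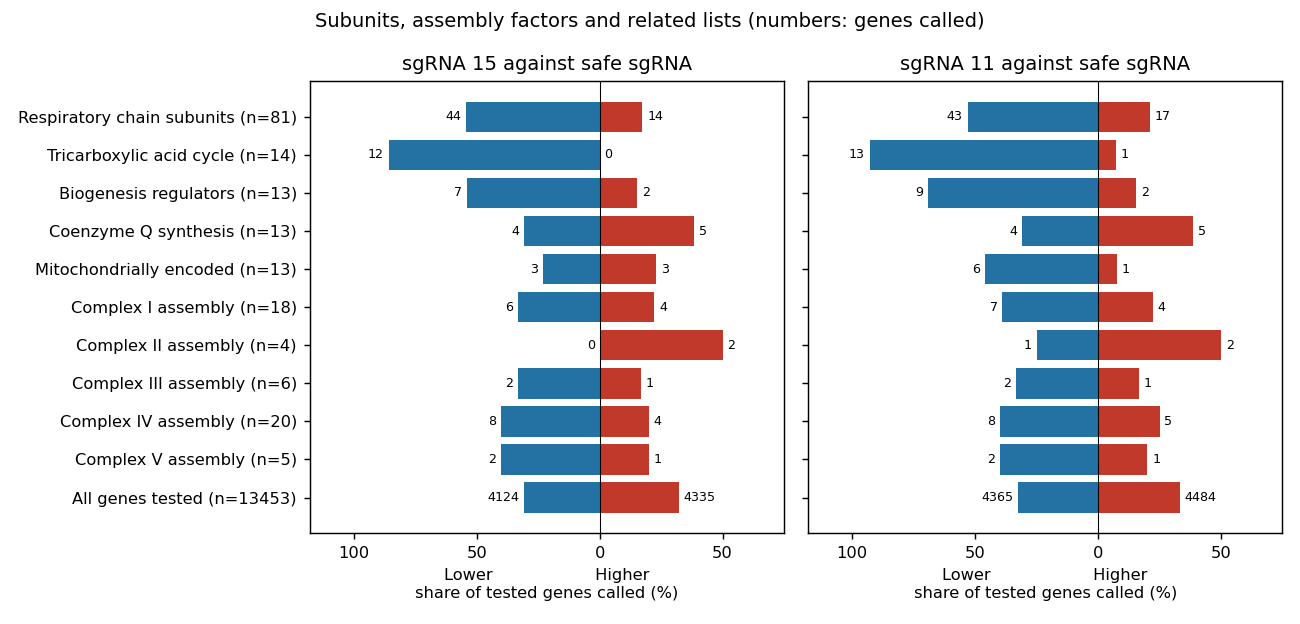
Share of tested genes in each list called lower (left of 0) or higher (right of 0) with sgRNA 15 (left panel) and sgRNA 11 (right panel) against safe sgRNA, with the number of genes called beside each bar. The respiratory chain subunits have 44 lower and 14 higher with sgRNA 15 and 43 lower and 17 higher with sgRNA 11, beside 4124 lower and 4335 higher of all 13453 genes with sgRNA 15 and 4365 lower and 4484 higher with sgRNA 11. The higher subunits include Cox6a2 with either guide, which met the count minimum only through the guide libraries.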

How the data were processed

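RNA was selected for poly(A) and depleted of rRNA, per the labels' protocols. The authors deposited a table of raw counts per gene for each library, made with STAR and HTSeq on mm10 per the submitters' processing notes. No version, annotation or strand setting is given in the sources used here. Assigned reads were 79.3 to 80.7% of each table, and HTSeq's tallies of unassigned reads stayed out. Libraries were grouped by the guide in their labels. Symbols, positions and exon lengths came from GENCODE M21, promoter windows from RefSeq.

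Counts were tested with edgeR 4.0.16 in R 4.3.3 (filterByExpr with minimum count 10, TMM, robust quasi-likelihood fit of all 9 libraries, 6 residual degrees of freedom, 2-sided F tests, Benjamini-Hochberg over 13453 genes). SE is derived from the F statistic. CPM is scaled by TMM, and TPM uses union exon length. Simulated data for sgRNA 11 against safe sgRNA held 13453 genes, with 67 changed 1.2-fold, 67 changed 1.5-fold and 66 changed 2-fold. Of these 58.2%, 91.0% and 93.9% were recovered, and 12 of 13253 unchanged genes were called. In the data a far larger share was called with sgRNA 11 (32.4% of tested genes lower and 33.3% higher). The adjustment depends on that share, so the simulated rates need not hold for the data. No pair of replicates agreed within sampling noise (chi-square per degree of freedom 1.76 to 6.83).

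Named members were, per complex, the 3 highest and 3 lowest by the smaller change of both guides among those called in one direction with both, all of complex II, Cycs, paralog sets, and the 6 with the largest guide difference; from other lists up to 4 genes by p. The members, lists and roles were chosen with earlier results of these data known. Alternatives were DESeq2 1.42.0, limma-voom (limma 3.58.1), RLE factors, library size only, GC and length correction, 2 other filters, the replicate number as a block, only the groups compared, and each library left out.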

Additional observations from a re-analysis of the deposited data

Results flagged for a closer look

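The changes of both guides against the same control were compared by a direct test of sgRNA 15 against sgRNA 11. They differed in 14 of the 37 subunits chosen to be named. Some of the 37 were chosen for the largest guide difference, so the choice partly fixes this count. Over all 81 members, 14.8% were lower and 8.64% higher with sgRNA 15 than with sgRNA 11. The shares of all tested genes were 15.5% lower and 18% higher. On the log2 scale Ndufa11 was -0.297 ± 0.075 (SE; adjusted p = 0.00088), Ndufa3 -0.198 ± 0.06 (SE; adjusted p = 0.00613), Ndufb11 -0.15 ± 0.049 (SE; adjusted p = 0.0112) and Ndufv1 -0.0884 ± 0.036 (SE; adjusted p = 0.0462), all lower with sgRNA 15. Also lower with sgRNA 15 were Cox7a2l at -0.149 ± 0.026 (SE; adjusted p = 2.02e-06), Cox4i1 at -0.113 ± 0.026 (SE; adjusted p = 0.000215), Cox6a1 at -0.0838 ± 0.029 (SE; adjusted p = 0.019) and Atp5g2 at -0.103 ± 0.03 (SE; adjusted p = 0.00458). Higher with sgRNA 15 were Cycs at 0.222 ± 0.034 (SE; adjusted p = 6.09e-08), Ndufb3 at 0.181 ± 0.058 (SE; adjusted p = 0.0105), Ndufs1 at 0.157 ± 0.033 (SE; adjusted p = 6.1e-05), Sdhc at 0.105 ± 0.028 (SE; adjusted p = 0.00172), Atp5f1 at 0.105 ± 0.028 (SE; adjusted p = 0.00183) and Sdha at 0.0671 ± 0.027 (SE; adjusted p = 0.0439). With the correction for GC content and length, 5 of the 14 (Cycs, Ndufb3, Ndufs1, Sdhc and Cox7a2l) kept direction and call, 8 lost the call, and Cox6a1 turned to 0.0513 (adjusted p = 0.557). With DESeq2 the calls of Ndufv1 (adjusted p = 0.0886), Sdha (0.0833) and Cox6a1 (0.0563) were lost. Sdha was also lost with limma-voom (adjusted p = 0.0534), with no low-count filter (0.247) and with only the groups compared (0.0630), and Ndufv1 when counts were scaled by library size only (adjusted p = 0.0618). Leaving out 1 library lost the call of Sdha in 8 of 9 fits (all but that without safe replicate 3) and of Ndufv1 without sgRNA 11 replicate 2 or 3 or sgRNA 15 replicate 1 or 2. It also lost Ndufb3 without sgRNA 11 replicate 1 or 3 or sgRNA 15 replicate 1 or 3, and Cox6a1 without sgRNA 11 replicate 3 or sgRNA 15 replicate 2. Atp5g2 was lost without sgRNA 11 replicate 3, Atp5f1 without sgRNA 15 replicate 1 and Ndufa3 without sgRNA 15 replicate 2.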

How the results depend on the processing

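Against safe sgRNA the counts of members held in all 19 alternatives, with 38 to 46 lower and 12 to 18 higher with sgRNA 15 and 40 to 45 lower and 15 to 18 higher with sgRNA 11. Of the members called, 37 of 44 lower and 12 of 14 higher with sgRNA 15, and 36 of 43 lower and 13 of 17 higher with sgRNA 11, kept direction and call throughout. The higher ones kept include Cox6a2 with either guide, which met the count minimum only through the guide libraries. The median of members with sgRNA 11 moved to -0.10 when counts were scaled by library size only, and ran from -0.16 (without safe replicate 1) to -0.13 when libraries were left out. No alternative moved the median of all genes beyond 0.05. Between the guides, members lower were 2 with the GC and length correction, 3 with the replicate block with that correction, and 7 (without sgRNA 15 replicate 2) to 15 when libraries were left out. Members higher were 13 with the replicate block with the correction and 3 (without sgRNA 15 replicate 1) to 7 when libraries were left out, with 4 without sgRNA 11 replicate 1 and 4 without sgRNA 11 replicate 3. Of the 19 calls 4 kept direction and call throughout. Cox6a1 reversed with sgRNA 11 against safe sgRNA to -0.0679 in the replicate block with GC and length correction (adjusted p = 0.0154), and between the guides to 0.0513 with the correction and 0.0560 with the replicate block and the correction. The cause was not tested. Samples with the same replicate number correlated at -0.008 to 0.06 in their deviations, and not every sample correlated best with its own number. These correlations cannot show whether samples with the same number share more than that number. The replicate block gave 45 lower and 16 higher with sgRNA 15 and 45 lower and 17 higher with sgRNA 11, and 12 lower and 8 higher between the guides. The least deeply counted members were Cox6a2, Atp5s, Ndufb2, Cox4i2 and Cox7a1, with at most 118 counts in any library.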

Other observations

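Some subunits carry symbols outside the pattern; of those given here, Usmg5 and Atpif1 were chosen with their values known. Ndufab1, the acyl carrier protein in complex I, averaged 16.3 ± 0.741 CPM with sgRNA 15, 15.6 ± 0.783 CPM with sgRNA 11 and 23.2 ± 0.701 CPM in the safe libraries (SD, n = 3 each). Ndufab1 fell by 0.51 ± 0.08 on the log2 scale with sgRNA 15 (SE; adjusted p = 7.45e-09) and by 0.57 ± 0.08 with sgRNA 11 (SE; adjusted p = 2.16e-10). Usmg5, a small subunit of the ATP synthase, averaged 34.9 ± 2.93 CPM with sgRNA 15, 34.9 ± 4.96 CPM with sgRNA 11 and 44.5 ± 3.85 CPM in the safe libraries (SD, n = 3 each). Usmg5 fell by 0.37 ± 0.11 on the log2 scale with sgRNA 15 (SE; adjusted p = 0.014) and by 0.35 ± 0.11 with sgRNA 11 (SE; adjusted p = 0.0164). Atpif1, the inhibitor of the ATP synthase, averaged 34.97 ± 2.79 CPM with sgRNA 15, 39.4 ± 0.824 CPM with sgRNA 11 and 33.6 ± 1.52 CPM in the safe libraries (SD, n = 3 each), and its log2 fold change was 0.06 with sgRNA 15 and 0.23 with sgRNA 11 (adjusted p = 0.4 and 0.000262). A search added after values were seen found the ATF4 composite core TGATGCAA in 0 of the 66 members with a window, beside 0.803% of tested genes with a window.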
